A study of Mus musculus with 2 samples.

Results

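Iron and heme handling genes were described in single cells of injured mouse skeletal muscle. They were taken by gene symbol and are 10 of the 32285 genes in the files: *Hmox1*, *Blvrb*, *Cd163*, *Hp*, *Slc11a1*, *Tfrc*, *Lcn2*, *Fth1*, *Ftl1* and *Slc40a1*. The samples were mononuclear cells of quadriceps from male WT C57BL/6J mice 14 weeks of age, taken 1 or 3 days after a BaCl2 injection that caused acute muscle injury. No uninjured muscle was analysed here. Each day had 1 library, pooled from 5 mice, so there was no replicate and no test, and every interval below is a 95% interval for counting error only. The cells were sorted by light scatter to remove debris, cryopreserved and thawed, and myofibers were not among them. C57BL/6J mice carry a loss-of-function allele of *Slc11a1*, so the level of this transcript does not give the activity of its protein.

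Injured muscle holds heme and iron from the myoglobin of broken fibers and the hemoglobin of leaked red blood cells. Free hemoglobin is bound by haptoglobin (*Hp*) and taken up by macrophages through the scavenger receptor CD163, and heme oxygenase 1 (*Hmox1*) opens the heme ring to biliverdin, carbon monoxide and ferrous iron. Biliverdin reductase B (*Blvrb*) reduces biliverdin and flavins. Iron enters cells through the transferrin receptor (*Tfrc*), leaves the phagosome through the transporter NRAMP1 (*Slc11a1*), is stored in ferritin, a shell of heavy (*Fth1*) and light (*Ftl1*) chains, and leaves the cell through ferroportin (*Slc40a1*). Lipocalin 2 (*Lcn2*) binds the siderophores with which bacteria collect iron. When iron is scarce, iron regulatory proteins bind a hairpin, the iron-responsive element, in some of these transcripts, which blocks translation from a 5′ element and protects the transcript from decay at 3′ elements.

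The iron-responsive elements are printed here because they divide the members into those with and without the known hairpin. A search of the annotated UTRs (GENCODE vM21, GRCm38) for a C, 5 bases, the loop CAGTGN with N not G, and 5 bases able to pair with the first 5 found an element in the 5′ UTR of *Fth1*, *Ftl1* and *Slc40a1* and 4 elements in the 3′ UTR of *Tfrc*. The other 6 members held no match. A match was found in the 5′ UTR of 23 of 20899 genes (0.110%) and in the 3′ UTR of 100 of 21028 genes (0.476%), and no gene had more than the 4 of *Tfrc*. The elements lie at chr19:9982732-9982760 (+ strand, *Fth1*), chr7:45459779-45459807 (− strand, *Ftl1*) and chr1:45925465-45925493 (− strand, *Slc40a1*), and those of *Tfrc*, on the + strand, at chr16:32631219-32631247, chr16:32631598-32631626, chr16:32631663-32631691 and chr16:32631710-32631738. Capitals mark the loop, and each sequence runs 5′ to 3′ on the transcript's strand.
Fth1: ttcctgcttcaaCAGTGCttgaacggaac
Ftl1: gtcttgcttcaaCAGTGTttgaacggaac
Slc40a1: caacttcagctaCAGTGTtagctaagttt
Tfrc element 1: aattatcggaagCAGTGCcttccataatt
Tfrc element 2: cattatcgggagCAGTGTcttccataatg
Tfrc element 3: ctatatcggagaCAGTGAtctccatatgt
Tfrc element 4: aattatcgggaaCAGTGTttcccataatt
The elements of *Fth1* and *Ftl1* differed at 3 of 29 bases, and that of *Slc40a1* differed from each of them at 16. The 4 *Tfrc* elements differed from each other at 4 to 11 bases.

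The barcodes with the most UMIs, at least 1000 UMIs and 200 genes and at most 7.5% mitochondrial UMIs, left 6735 cells of day 1 and 4627 of day 3, with medians of 9389 and 14548 UMIs. No barcode was shared between the libraries. The libraries hold 74852240 and 102565783 UMIs and list 737280 and 6794880 possible barcodes, so library chemistry may differ, and chemistry and day cannot be told apart. The mitochondrial limit alone removed 277 cells of day 1 (3.76%) and 1804 of day 3 (27.2%). The 16 clusters were named by marker genes. Monocyte/macrophage-like cells were 51.4% of the cells on day 1 and 60.7% on day 3 (3463 and 2809 cells), and neutrophil-like cells 30.8% and 5.34% (2072 and 247). Cells like fibro-adipogenic progenitors (FAPs) numbered 644 and 824, dendritic cell-like cells 442 and 460, and endothelial-like cells 95 and 65. Satellite cell-like cells were described on day 3 only (200 cells, against 6 on day 1). The FAP-like cells of day 1 formed a cluster led by *Il1rl1*, in which 4 of 8 FAP markers and 3 of 5 tenocyte markers were raised, and those of day 3 another, led by *Sfrp2*. The expression level is given as UMIs of the gene per 1000000 UMIs (CPM), summed over the cells of a type. A UMI counts the 3′ end of a molecule, so transcript length does not enter a comparison between genes.

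**Figure D1:**
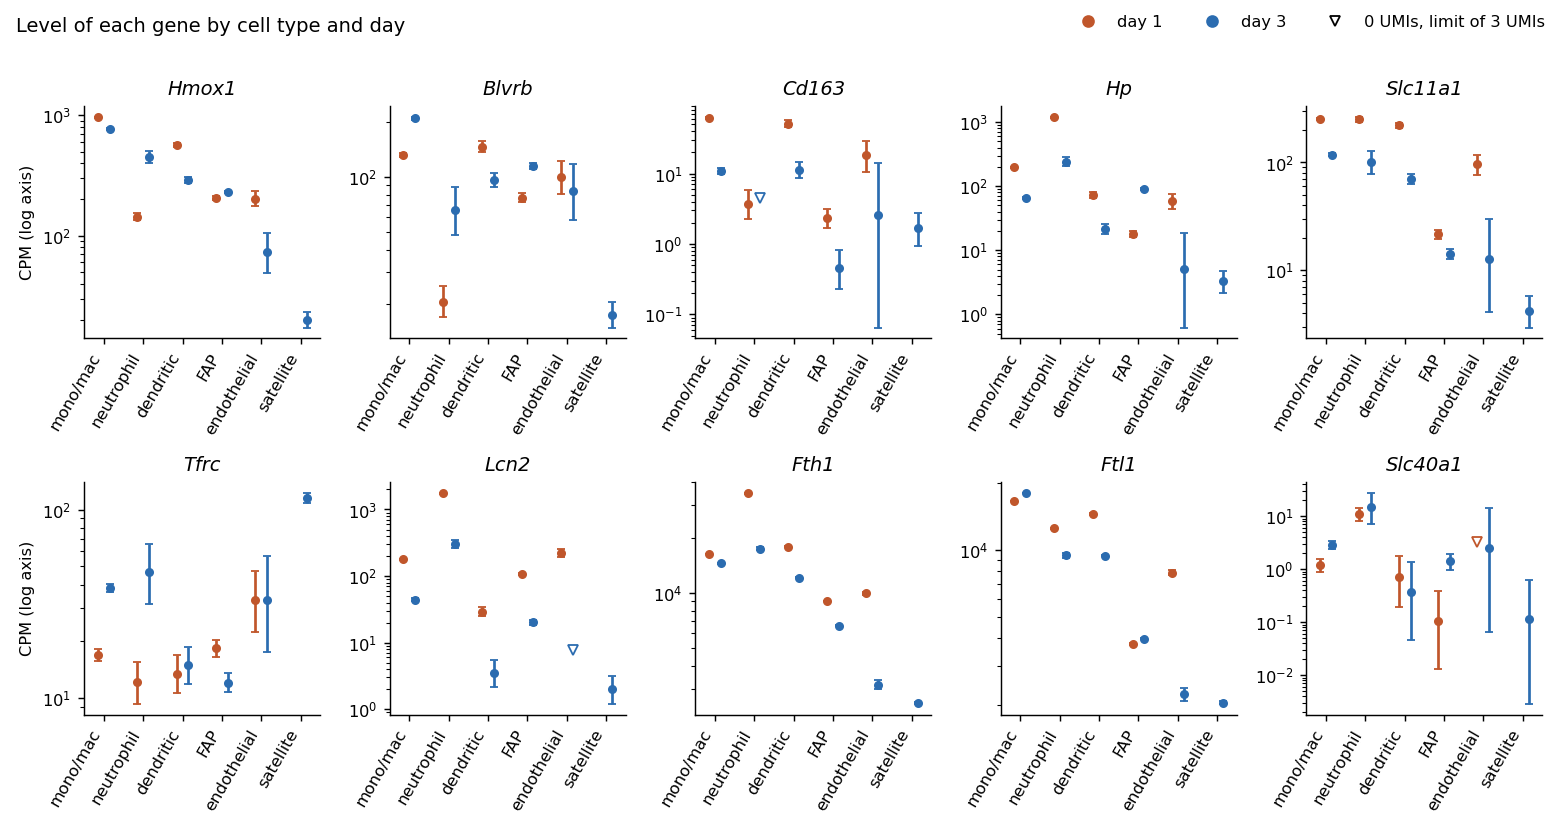
Level of each gene (CPM, log axis) in cells named by markers, day 1 in orange and day 3 in blue, 1 library per day, with bars for the 95% Poisson interval. *Fth1* and *Ftl1* were above 2000 CPM in every type, *Hmox1* was highest in monocyte/macrophage-like cells (967.5 CPM on day 1 and 770.3 on day 3), and *Tfrc* was highest in satellite cell-like cells (115.5 CPM on day 3).

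A gene was called different between the days at a ratio of at least 2, among genes with at least 50 UMIs over both days in the cell type. In monocyte/macrophage-like cells all 10 genes had that many UMIs. *Tfrc* and *Slc40a1* were higher on day 3, *Cd163*, *Lcn2*, *Hp* and *Slc11a1* were lower, and *Hmox1*, *Blvrb*, *Fth1* and *Ftl1* stayed within 2-fold. Of all 11596 genes tested in these cells, 29.4% were higher and 5.04% lower (34.4% in all), and their median log2 ratio was 0.48, against −0.25 for the members. The higher calls of *Tfrc* and *Slc40a1* are at a share below the background, and they were lost under median-of-ratios scaling, which lowers every log2 ratio in these cells by 0.51 and gives 0 higher and 4 lower.

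In neutrophil-like cells 9 members had enough UMIs, of which *Hmox1*, *Tfrc* and *Blvrb* were higher on day 3 and *Lcn2*, *Hp*, *Slc11a1* and *Fth1* were lower (background 32.3% higher and 8.05% lower, 40.4% in all). Median-of-ratios scaling, a shift of 1.12 there, gave 0 higher and 5 lower. In dendritic cell-like cells 0 of 9 were higher and 4 lower, namely *Slc11a1*, *Cd163*, *Hp* and *Lcn2* (background 15% and 3.74%, 18.7% in all). With 20 principal components for clustering, which left 91 and 226 of these cells, only 1 was lower. The type was a cluster led by *H2-Eb1*, with 0 dendritic cell markers among its 10 leading genes, and at a clustering resolution of 0.4 it had 0 cells. In FAP-like cells *Hp* was higher and *Cd163* and *Lcn2* lower, of 9 tested (background 23.4% and 7.1%, 30.5% in all). In endothelial-like cells 6 of 7 were lower and 0 higher (background 11.3% lower and 9.18% higher, 20.5% in all), and there the summed level of the macrophage markers also went from 5275 CPM to 621, that of neutrophil markers from 3562 to 89.1 and that of erythroid markers from 1766 to 7.64. Other sums rose, among them those of T and NK cell markers from 68.3 CPM to 1665 and of mural cell markers from 352 to 1018. The endothelial markers themselves summed to 2726 and 2037 CPM. The part of these other cell types in the endothelial values was not tested. With each cell named by its own marker score only 2 were lower, and *Hmox1* (0.70) and *Ftl1* (0.29) turned to the other sign.

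**Figure D2:**
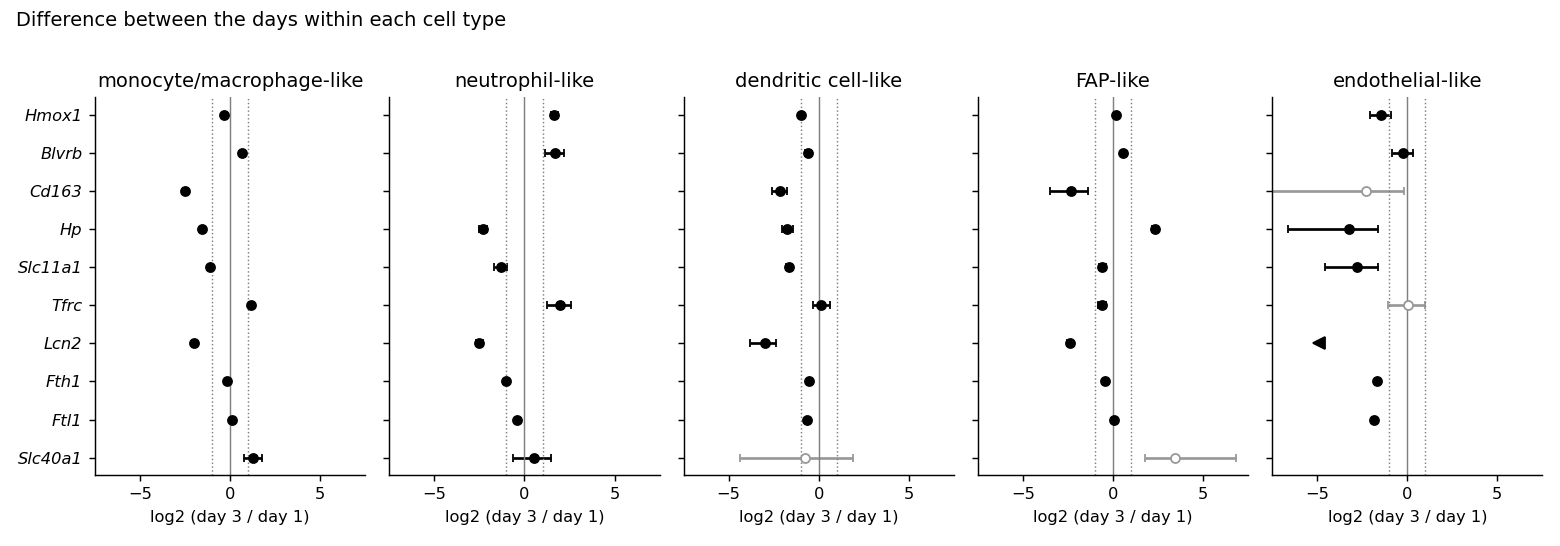
Log2 ratio of day 3 over day 1 for each gene in 5 cell types, with the 95% counting interval; dotted lines mark 2-fold, open grey points genes under 50 UMIs, and the triangle a bound where day 3 had 0 UMIs. *Cd163*, *Hp*, *Lcn2* and *Slc11a1* lay left of 0 in most types, while *Hp* in FAP-like cells lay at 2.31.

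*Hmox1* (ENSMUSG00000005413, chr8:75093621-75100589, + strand) was highest in monocyte/macrophage-like cells on both days, at 967.5 CPM (958.0 to 977.2) on day 1 and 770.3 (762.2 to 778.5) on day 3, a log2 ratio of −0.33. After each cell was thinned to 1000 UMIs, the share of these cells with an *Hmox1* UMI was 35.4% and 34.9%, against 3.00% of satellite cell-like cells on day 3. The thinned shares of the days overlapped in their intervals. These cells held 82.8% of all *Hmox1* UMIs on day 1 and 81.7% on day 3. The transcript was unevenly spread over them: the 10% of cells with the most held 63.1% and 59.4% of it, and single cells reached 360 and 519 UMIs. The median cell had 323 CPM on day 1 and 314 on day 3, below the pooled level on either day.

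In the other types on day 1, *Hmox1* stood at 567 CPM in dendritic cell-like, 206 in FAP-like, 203 in endothelial-like and 144 in neutrophil-like cells, of which the FAP-like and endothelial-like values did not differ beyond their intervals. Ambient RNA held 569 CPM on day 1 and 323 on day 3, and its part in the FAP-like and endothelial-like levels was not tested. On day 3 the order was neutrophil-like (455 CPM), dendritic cell-like (290), FAP-like (230), endothelial-like (73.8) and satellite cell-like (20.01). The neutrophil-like cells thus moved up, from 144 CPM (134.0 to 155.1) to 455 (405 to 509), a log2 ratio of 1.66. Of their 303 *Hmox1* UMIs on day 3, 94 were in 1 cell, and the share of thinned cells with a UMI was 8.74% on day 1 and 16.2% on day 3. The ambient RNA of these few cells was high: by 4 collagen and matrix genes it made up 37.0% of their UMIs on day 3 against 2.10% on day 1, and their summed macrophage markers were 3829 CPM against 517. After subtraction of ambient RNA, *Hmox1* was at 135 and 485 CPM in them, a log2 ratio of 1.84. With each cell named by its own marker score the ratio was −0.038. In dendritic cell-like cells the log2 ratio was −0.97, and 0.67 with 20 principal components.

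*Blvrb* (ENSMUSG00000040466, chr7:27447978-27466144, + strand) was at 132 CPM (128 to 135) in monocyte/macrophage-like cells on day 1 and at 210 (206 to 215) on day 3, a log2 ratio of 0.68. Its share of thinned cells went from 10.3% to 17.1%. In FAP-like cells it moved the same way, from 77.2 CPM to 115, and in dendritic cell-like cells the other way, from 147 CPM to 96.5, all within 2-fold. In neutrophil-like cells the level was 20.7 CPM on day 1 and 66.0 on day 3, 106 and 44 UMIs. By the estimate from collagen and matrix genes, ambient RNA accounted for 70.7% of the day 3 level. The log2 ratio of 1.68 became 0.66 after its subtraction. *Blvra*, which encodes the main reductase of biliverdin, and *Hmox2*, the constitutive heme oxygenase, stayed within 2-fold in monocyte/macrophage-like cells.

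*Cd163* (ENSMUSG00000008845, chr6:124304656-124330527, + strand) had 62.1 CPM (59.7 to 64.6) in monocyte/macrophage-like cells on day 1 and 10.9 (9.99 to 11.96) on day 3, and was 5.67-fold lower. A UMI of it was found in 10.9% of these cells on day 1 and in 6.30% on day 3, and in 3.96% and 0.854% after thinning. It was thus detected in a minority of these cells on both days. Neutrophil-like cells, which should lack the receptor, had 3.72 CPM on day 1 and 0 UMIs on day 3, which allows up to 4.50 CPM. In FAP-like cells its level was 2.34 and 0.452 CPM, 44 and 11 UMIs, against 28.3 and 7.66 CPM in ambient RNA and 1.69 CPM in satellite cell-like cells on day 3, so no expression is read from the call there. Dendritic cell-like cells had 51.0 and 11.2 CPM (291 and 60 UMIs), and summed macrophage markers of 7886 and 7459 CPM against 444 and 371 for the dendritic cell markers. The log2 ratio of −2.17 there turned to 3.77 when cells under 10% of the 99th percentile of UMIs were left out and to 2.42 with 20 principal components.

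The day 1 monocyte/macrophage-like cells with a *Cd163* UMI, 376 of 3463, were compared with the 3087 without one, with medians of 13008 and 10974 UMIs. *Blvrb* was at 275 CPM in those with and 110 in those without, *Hmox1* at 1284 and 920 and *Tfrc* at 27.9 and 15.4. *Hp* was lower in cells with *Cd163* (83.4 against 212 CPM), as were *Lcn2* (59.7 against 195) and *Slc11a1* (209 against 261). Some of these gaps were smaller among the cells of 1 cluster, and that of *Hmox1* did not keep its direction. In the *Ccl24*-led cluster of day 1 *Hmox1* was lower with *Cd163* (968 against 1042 CPM), as in the *Fcrls*-led cluster of day 3 (758 against 836). In the *Ppbp*-led cluster, which had the most *Cd163*, *Hmox1* was at 1521 CPM with the receptor and 1319 without, *Hp* at 41.6 and 62.4 and *Lcn2* at 33.8 and 52.2, while *Blvrb* was at 317 and 161. In the *Gpnmb*-led cluster of day 3, *Hmox1*, *Hp* and *Lcn2* did not differ beyond counting error. *Blvrb* (278 against 223 CPM) and *Tfrc* (68.7 against 46.0) were higher with *Cd163* there, and *Slc11a1* (91.8 against 127) was lower. Over all day 1 monocyte/macrophage-like cells, *Lyve1* and *Folr2*, genes of resident macrophages, were at 34.3 and 266 CPM with *Cd163* and at 5.13 and 39.1 without. Over those of day 3 they were at 26.1 and 493 CPM with and at 4.80 and 293 without.

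*Hp* (ENSMUSG00000031722, chr8:109575128-109579172, − strand) was highest in neutrophil-like cells, at 1188 CPM (1158 to 1218) on day 1 and 242 (206 to 282) on day 3, a log2 ratio of −2.29, or −1.19 with each cell named by its own marker score. Monocyte/macrophage-like cells had 195 CPM and 66.2, a log2 ratio of −1.56, with a UMI in 14.2% and 8.12% of thinned cells. With each cell thinned to 1000 UMIs the ratio was −0.85, under the 2-fold line. FAP-like cells moved in the opposite direction, from 18.2 CPM (16.3 to 20.2) to 90.2 (86.4 to 94.0), a log2 ratio of 2.31, or 3.35 without the cells of the highest doublet scores. Ambient RNA held 186 CPM of *Hp* on day 1 and 51.4 on day 3, so the FAP-like cells were below ambient RNA on day 1 and above it on day 3. Monocyte/macrophage-like cells held 53.4% of all *Hp* UMIs on day 1 and 54.1% on day 3. Of the rest, neutrophil-like cells held 41.1% of the total on day 1, and FAP-like cells held 2.32% of it on day 1 and 40.3% on day 3.

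*Lcn2* (ENSMUSG00000026822, chr2:32384633-32388252, − strand) followed *Hp* in the myeloid cells but not in FAP-like cells. It was at 1744 CPM (1708 to 1781) in neutrophil-like cells on day 1 and 308 (267 to 353) on day 3, a log2 ratio of −2.50, or −1.40 by the cells' own marker scores. In monocyte/macrophage-like cells it was at 177 and 44.2 CPM, a log2 ratio of −2.004, or −1.19 in thinned cells. FAP-like cells had 107 CPM and 20.1, both below the ambient level of 273 and 51.5 CPM, and their summed neutrophil markers went from 648 CPM to 110. In dendritic cell-like cells it went from 29.3 CPM to 3.56, and ambient RNA was estimated at 66.0% of the day 1 level. In monocyte/macrophage-like cells the ambient part of *Lcn2* was 2.79% and 2.06%, and the summed level of the 11 neutrophil markers, all detected on both days, went from 1750 CPM to 419. The part of neutrophil RNA or of doublets in the *Hp* and *Lcn2* values of macrophages was not tested. In endothelial-like cells *Lcn2* had 210 UMIs on day 1 and 0 on day 3, at least 29.3-fold lower against a floor of 3 UMIs, but with each cell named by its own marker score the log2 ratio was −1.78. Their summed neutrophil markers went from 3562 CPM to 89.1, and the part of those in the *Lcn2* value was not tested.

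*Slc11a1* (ENSMUSG00000026177, chr1:74375195-74386062, + strand) was at a like level in the myeloid types on day 1, with 254 CPM (249 to 259) in monocyte/macrophage-like, 253 (239 to 267) in neutrophil-like and 221 (209 to 234) in dendritic cell-like cells. On day 3 it had 118 (115 to 122), 101 (77.9 to 128) and 70.3 CPM (63.3 to 77.8). It was thus 2.15-fold, 2.49-fold and 3.14-fold lower in the same order, and the values of the days overlapped in none of these types. In thinned neutrophil-like cells the log2 ratio was −0.91, under the 2-fold line. FAP-like cells had 21.6 and 14.3 CPM, below ambient RNA (195 and 44.4 CPM).

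*Tfrc* (ENSMUSG00000022797, chr16:32608920-32632794, + strand) went from 17.004 CPM (15.8 to 18.3) to 38.4 (36.6 to 40.3) in monocyte/macrophage-like cells, a log2 ratio of 1.18, or 0.66 under median-of-ratios scaling. In neutrophil-like cells it had 62 and 31 UMIs, or 12.1 CPM (9.31 to 15.6) and 46.5 (31.6 to 66.0). The log2 ratio there was 1.95, or 0.83 under median-of-ratios scaling and 2.13 after subtraction of ambient RNA. The part of RNA of other cell types in the day 3 level was not tested. Dendritic cell-like cells, at 13.5 and 14.99 CPM, did not differ beyond their intervals, and FAP-like cells were within 2-fold, at 18.4 and 12.1 CPM. The highest level was that of the satellite cell-like cells of day 3, at 115.5 CPM (108.5 to 122.8). These 200 cells held 32.6% of all *Tfrc* UMIs of that day, and 95.5% of them had a UMI, or 9.50% after thinning, against 2.60% of monocyte/macrophage-like cells.

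The ferritin chains were among the most abundant transcripts of the immune cells, though not of these alone. In FAP-like cells *Fth1* had rank 1 on day 1 and rank 7 on day 3 among all genes. In monocyte/macrophage-like cells *Ftl1* had rank 3 on day 1 and rank 2 on day 3 among all genes, and *Fth1* had rank 4 on both days. *Fth1* (ENSMUSG00000024661, chr19:9980598-9985098, + strand) was at 16259 CPM and 14460 in these cells and *Ftl1* (ENSMUSG00000050708, chr7:45457944-45459884, − strand) at 16636 and 18104. The log2 ratios were −0.17 and 0.12, and that of *Ftl1* turned to −0.39 under median-of-ratios scaling. Together the chains made up 3.29% of the UMIs of these cells on day 1 and 3.26% on day 3. In neutrophil-like cells *Fth1* was at 34969 CPM on day 1 and 17424 on day 3, a log2 ratio of −1.005 that was −0.76 after subtraction of ambient RNA. *Ftl1* stayed within 2-fold there, at 12537 and 9471 CPM.

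The balance of the chains differed between cell types more than between days. On day 1 there were 2.79 UMIs of *Fth1* per UMI of *Ftl1* in neutrophil-like cells (2.76 to 2.81) and 2.40 in FAP-like cells (2.38 to 2.42), against 1.23 in dendritic cell-like and 0.977 in monocyte/macrophage-like cells (0.974 to 0.981). On day 3 the ratio was 1.84, 1.66, 1.28 and 0.799 in the same order. It was lower on day 3 in all of these but the dendritic cell-like cells, with an estimated ambient share of 37.0% in neutrophil-like cells. The monocyte/macrophage-like cells alone lay below 1. Satellite cell-like cells had the least ferritin in pooled UMIs, 0.455%, at a ratio of 1.23. By the median cell the endothelial-like cells of day 3 had less, 0.336% against 0.430%. *Ftl1-ps1*, a near-identical copy of *Ftl1*, was listed at 45.9 and 42.1 CPM in monocyte/macrophage-like cells, and reads shared between the copies make the *Ftl1* level uncertain by an amount that was not tested.

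**Figure D3:**
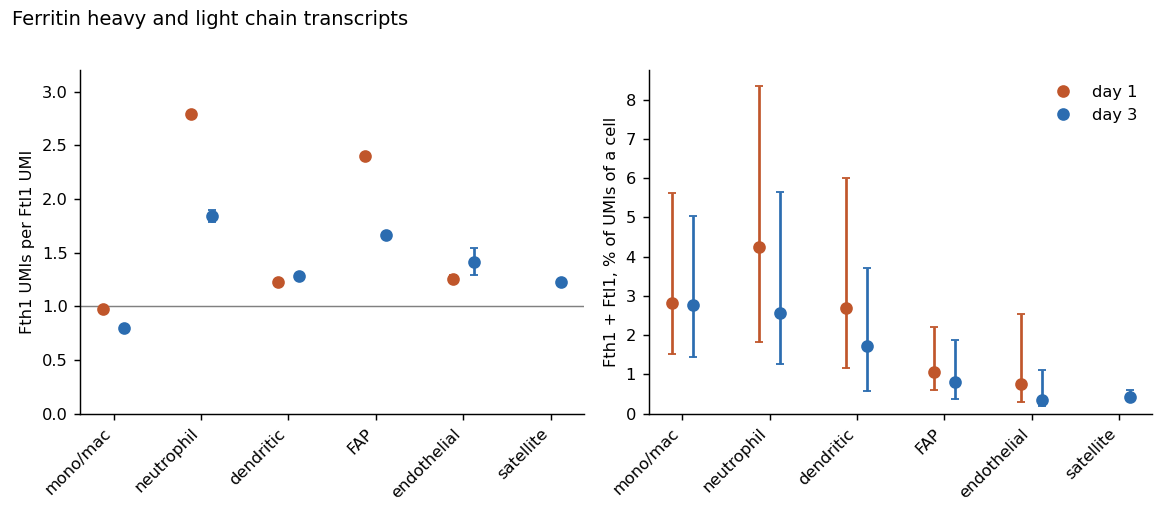
Left, UMIs of *Fth1* per UMI of *Ftl1* by cell type and day with the 95% counting interval and a line at equal numbers; right, the share of a cell's UMIs from both genes, as the median over cells with bars from the 10th to the 90th percentile. Neutrophil-like and FAP-like cells lay highest on the left on both days, and monocyte/macrophage-like cells below 1, at 0.977 and 0.799.

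*Slc40a1* (ENSMUSG00000025993, chr1:45908068-45926523, − strand) was the rarest of the 10 genes, with 109 UMIs in all cells of day 1 and 174 in those of day 3. Monocyte/macrophage-like cells had 48 and 126 of them, 1.19 CPM (0.877 to 1.58) and 2.83 (2.36 to 3.37), a log2 ratio of 1.24. Only 0.606% and 1.60% of these cells had a UMI. The share was 0.260% and 0.249% after thinning to 1000 UMIs, and 0.210% and 0.616% after thinning to 3000, so that no order is read from it. With the mean of the cells' own CPM the log2 ratio was 0.66, under the 2-fold line. The level was higher in neutrophil-like cells, at 10.8 CPM (8.11 to 14.0) on 55 UMIs and 15.01 (7.20 to 27.6) on 10, and the days did not differ beyond counting error there. FAP-like cells had 2 UMIs on day 1 and 34 on day 3, a log2 ratio of 3.41 (1.75 to 6.82) on too few UMIs for a call.

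Within the monocyte/macrophage-like cells, clusters were formed without the members and markers, and most held cells of a single day. Day 1 cells were mainly in clusters led by *Ppbp* (1040 cells), *Ccl24* (835), *Il1b* (800) and *Ifitm6* (655), and day 3 cells in clusters led by *Gpnmb* (1060), *Fcrls* (969) and *Ifit2* (399). The *Plac8*-led cluster had 56 cells of day 1 and 317 of day 3, and monocyte genes were among the leading genes of it and of the *Ifitm6*-led cluster. *Slc11a1* was the only member for which every day 1 cluster (223 to 286 CPM) lay above every day 3 cluster (98.7 to 139), as did 3.97% of all genes, and for the other 9 the clusters overlapped between the days.

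*Hmox1* differed more between clusters than between days. On day 1 it went from 1366 CPM in the *Ppbp*-led cluster through 1033 (*Ccl24*), 639 (*Il1b*) and 516 (*Ifitm6*) to 296 (*Plac8*), a 4.62-fold range. On day 3 the *Ifit2*-led cluster had 920, the *Fcrls*-led 828, the *Gpnmb*-led 723 and the *Plac8*-led 338. The clusters with monocyte genes among their leading genes thus had the least *Hmox1* on either day. In the 56 *Plac8*-led cells of day 1 the neutrophil markers summed to 16160 CPM against 4902 for the monocyte markers. The part of neutrophil RNA in their *Hmox1* level was not tested. *Cd163* was at 128 CPM in the *Ppbp*-led cluster and at most 38.7 in any other, and the same cluster had the most *Blvrb* of day 1, at 198 CPM.

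*Hp* and *Lcn2* ran the other way. They were highest in the *Plac8*-led cluster, at 1086 and 1181 CPM on day 1 and 531 and 352 on day 3, followed by the *Ifitm6*-led cluster (535 and 507). They were lowest in the *Gpnmb*-led cluster, at 5.64 and 3.61 CPM. The summed neutrophil markers stood at 16160 CPM in the *Plac8*-led cluster on day 1 and 2587 on day 3, at 2339 in the *Ifitm6*-led cluster and at 73.2 in the *Gpnmb*-led cluster. They did not keep the order of *Hp* and *Lcn2* throughout. The *Il1b*-led cluster had 3455 CPM of them, more than the *Ifitm6*-led one, with *Hp* at 178 and *Lcn2* at 176. The part of neutrophil RNA in these levels was not tested. Without the *Plac8*-led and *Ifitm6*-led clusters, *Hp* and *Lcn2* were still lower on day 3, at log2 ratios of −1.72 and −2.24, and the members still gave 2 higher and 4 lower.

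The *Gpnmb*-led cluster, whose leading genes include *Cd5l* and *Fabp3*, had the most *Ftl1* (23020 CPM), *Tfrc* (47.8) and *Blvrb* (227). Its *Fth1* to *Ftl1* ratio, 0.673, was below those of the *Plac8*-led cluster (1.78 on day 1 and 1.47 on day 3). *Fth1* varied less than *Ftl1*, from 12888 to 17305 CPM over the day 1 clusters and from 12181 to 15496 over those of day 3.

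**Figure D4:**
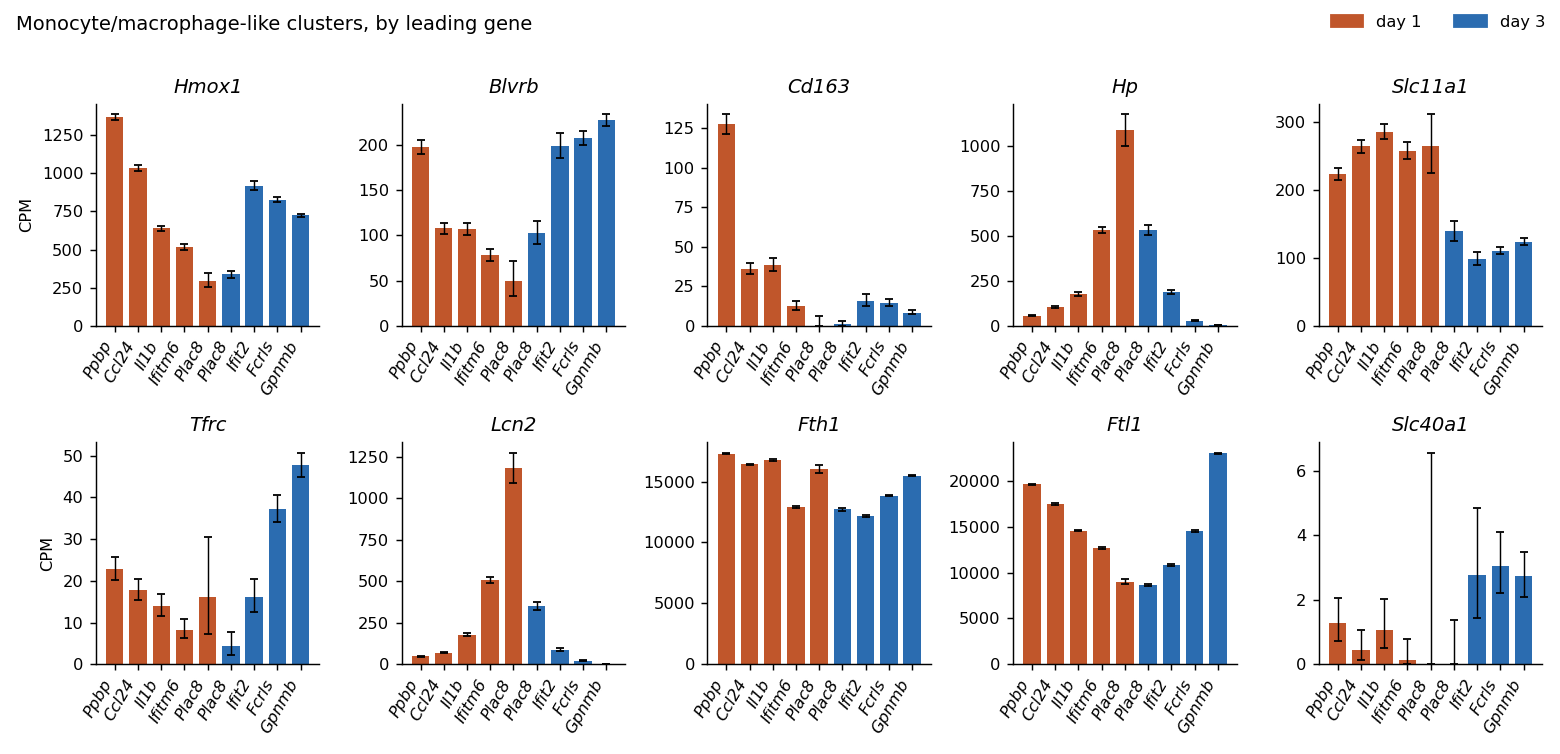
Level of each gene (CPM, linear axis from 0, 95% Poisson interval) in the monocyte/macrophage-like clusters with at least 50 cells, named by their leading gene, day 1 in orange and day 3 in blue. *Hmox1* fell off from the *Ppbp*-led (1366) to the *Plac8*-led cluster (296), *Hp* and *Lcn2* peaked in the *Plac8*-led cluster, and *Slc11a1* separated the days.

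The other genes of iron and heme metabolism, a list of 48 chosen by function, were described in the same way. In monocyte/macrophage-like cells 39 had at least 50 UMIs, of which 11 were at least 2-fold higher on day 3, 3 lower and 25 within 2-fold, with a median log2 ratio of 0.59 against 0.48 for all genes (background 29.4% higher and 5.04% lower, as above). Median-of-ratios scaling gave 5 higher and 6 lower. In heme uptake and transport 3 of 5 were higher and 0 lower. *Hebp1*, a heme-binding protein, went from 3.74 CPM to 93.0 (log2 ratio 4.63), *Abcg2*, an exporter of porphyrins, from 0.620 to 5.35 (3.08), and *Lrp1*, the receptor of hemopexin-bound heme, stayed within 2-fold. Among 8 genes of heme synthesis 3 were higher and 1 lower. The lower gene was *Alas1*, the rate-limiting first enzyme, which went from 92.8 CPM to 30.2 (−1.62), whereas *Alad* (6.52 to 13.8), *Cpox* (5.26 to 14.9) and *Fech* (8.68 to 22.6) were higher, at 1.08, 1.503 and 1.38. The shift of 0.51 puts all 3 of these under 2-fold. *Ppox*, the enzyme between *Cpox* and *Fech*, was at 0.15 with an interval that holds 0.

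Iron uptake had 6 genes tested, with 2 higher and 2 lower. The endosomal ferrireductase *Steap3* went from 6.32 CPM to 41.2 (2.70) and the metal importer *Slc39a8* from 0.768 to 7.96 (3.35). Its relative *Slc39a14*, an importer of non-transferrin iron, went the other way, from 79.1 to 25.7 (−1.62), as did transferrin (*Trf*), from 105 to 49.0 (−1.10). *Hfe*, a partner of the transferrin receptor in iron sensing, went from 11.3 to 56.8 (2.33). None of the 6 genes of iron and heme sensing, which include *Aco1*, *Ireb2*, *Bach1* and *Nfe2l2*, passed 2-fold in either direction. Under median-of-ratios scaling, which lowers each by 0.51, *Fbxl5* (−0.93 before the shift) and *Spic* (−0.58) were at least 2-fold lower.

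**Figure D5:**
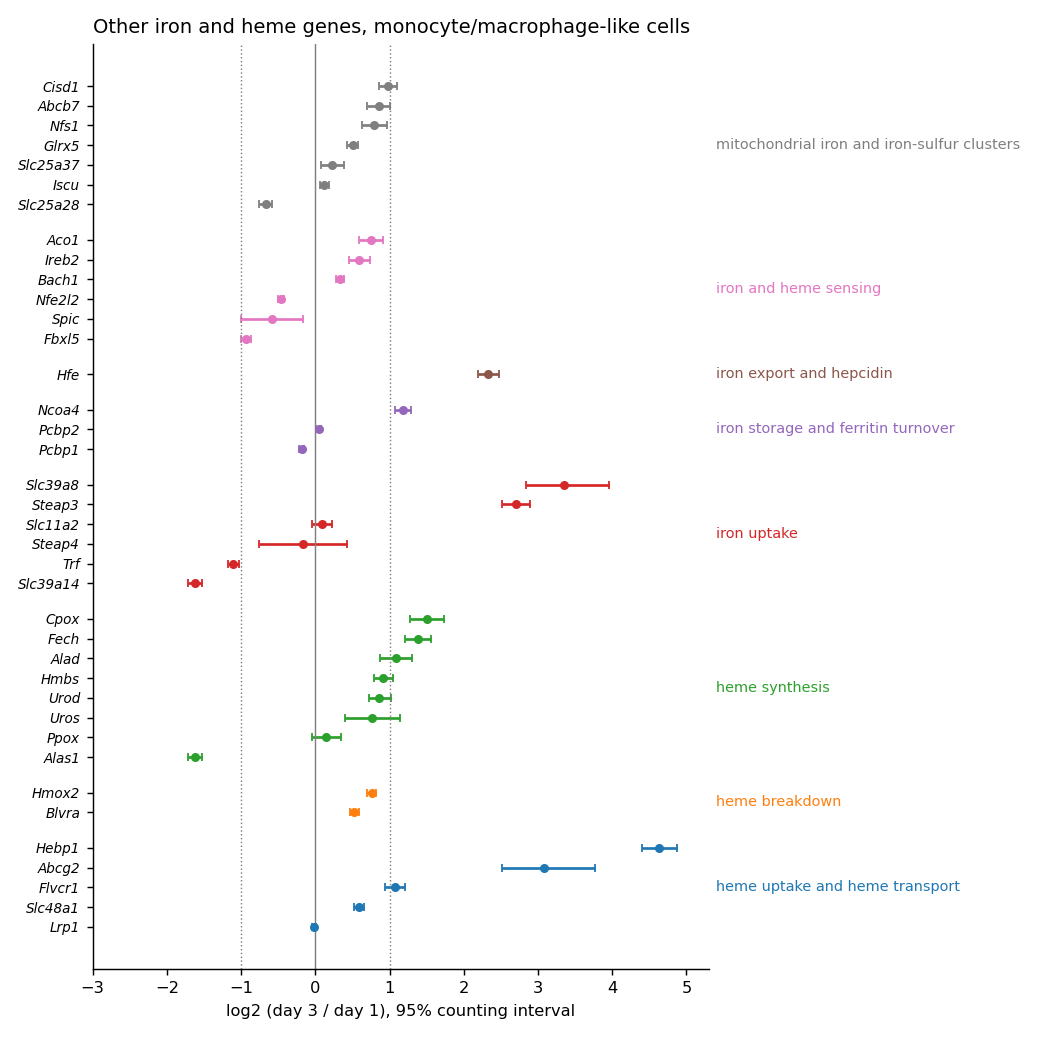
Log2 ratio of day 3 over day 1 in monocyte/macrophage-like cells for most of the other iron and heme genes with at least 50 UMIs, grouped by role, with the 95% counting interval and dotted lines at 2-fold. *Hebp1* (4.63) lay farthest to the right and *Alas1* and *Slc39a14* (both −1.62) farthest to the left.

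In neutrophil-like cells 23 of the 48 genes were tested, with 5 higher and 2 lower, or 2 and 7 under median-of-ratios scaling. The background there was 32.3% higher and 8.05% lower. *Alas1* was lower there as well, from 271 CPM to 63.0 (−2.08), while *Slc39a14*, from 5.87 to 31.5 (2.43, on 30 and 21 UMIs), went the other way from the macrophages. *Blvra* (7.24 to 36.0, 37 and 24 UMIs) and *Lrp1* (28.6 to 122) were higher. The ambient share of these cells on day 3, estimated at 37.0%, came from genes that are also FAP markers. Their summed FAP markers went from 125 CPM to 2151 and their macrophage markers from 517 to 3829. The part of these in the 3 higher values was not tested. *Ppox* was lower at −1.09, on 73 and 4 UMIs and with an interval that holds 0. In FAP-like cells 40 were tested, with 6 higher and 1 lower, or 4 and 6 under median-of-ratios scaling. The background in these cells was 23.4% higher and 7.1% lower, so the share of higher genes was below it. The ferroxidase *Heph* had 4 and 56 UMIs there (3.28), *Hfe* went from 4.58 CPM to 28.9 (2.65) and *Bach1*, the heme-sensing repressor of *Hmox1*, from 35.7 to 101.5 (1.51). *Cisd1*, an iron-sulfur protein of the outer mitochondrial membrane, went from 131 to 49.9 (−1.39).

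Over the 11 groups of cell type and day with at least 50 cells, the genes whose pattern of log2(CPM + 1) was most like that of each member were sought among 10388 genes. The groups of a day share a library and its ambient RNA, so the correlations are descriptions across groups that are not independent. *Slc11a1* was followed most closely by *Fcgr3* (r = 0.99), *Osm* and *Ninj1*, and *Ftl1* by *Atp6ap1* (r = 0.99), *Adam8* and *Plin2*. For *Blvrb* these were *Cmklr1* (r = 0.97), *Stx4a* and *Gpr108*, for *Lcn2* *S100a8* (r = 0.95), *Noct* and *Blcap*, and for *Hmox1* *Sem1* (r = 0.95), *Rab7b* and *Metrnl*.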

How the data were processed

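The files are matrices of UMI counts as deposited by the authors, neither normalized nor restricted to cells, made per the labels with Cell Ranger 5.0.0 on mm10 (the file headers name Cell Ranger 4). Barcodes were ranked by UMIs, the top 7367 (day 1) and 6640 (day 3) were kept, and the filters given above were applied. Clustering used SCTransform (sctransform 0.4.2, Seurat 5.3.0, R 4.3.3) with the cell cycle difference and the mitochondrial share regressed out, with 3000 variable features less all members, pathway genes and markers, 10 PCs and a resolution of 0.8. A cluster took the list with the most markers at 40% or more of their highest cluster level, at least 3, unless another list led its 10 leading genes; names end in -like, and monocyte and macrophage lists name 1 class. Doublets were kept, since Scrublet marked 1 and 0 cells. CPM carry exact Poisson, shares Clopper-Pearson and log2 ratios (0.5 added to each count) exact binomial intervals. The ambient profile is that of barcodes of up to 100 UMIs, and its share was estimated from *Col1a1*, *Col1a2*, *Col3a1* and *Dcn*. Named were all members, and of the other iron and heme genes past 2-fold up to 8 (neutrophil-like and FAP-like cells 3) per direction by size of the ratio; *Alad*, *Ppox*, *Blvra*, *Hmox2*, *Lrp1* and the sensing genes, and *Lyve1* and *Folr2*, were named after their values were seen, and 1 gene that the rule named is not reported here. Members and lists were chosen with earlier results of these data known. Uninjured and dystrophic muscle of the study were not analysed here. Python 3.11.15, numpy 2.4.6, scipy 1.17.1 and pandas 2.3.3 were used, and the alternatives are given at the end.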

Additional observations from a re-analysis of the deposited data

Results flagged for a closer look

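Members and related genes past 2-fold in opposite directions in different cell types were looked at again, and the differences between the types were not tested. *Hp* had log2 ratios of day 3 over day 1 of −1.56 in monocyte/macrophage-like, −2.29 in neutrophil-like, −1.74 in dendritic cell-like and −3.22 in endothelial-like cells, and of 2.31 in FAP-like cells. The dendritic cell-like ratio was −0.007 with 20 principal components, and the endothelial-like one rested on 55 and 2 UMIs. *Hmox1* was at 1.66 in neutrophil-like and −1.44 in endothelial-like cells, and *Lrp1* at 2.09 and −2.18 in the same types. In the neutrophil-like cells ambient RNA was estimated at 2.10% of UMIs on day 1 and 37.0% on day 3, from genes that are also FAP markers. Their summed FAP markers went from 125 CPM to 2151 and their macrophage markers from 517 to 3829. In the endothelial-like cells the macrophage markers went from 5275 to 621 and the neutrophil markers from 3562 to 89.1. The part of these in the ratios was not tested. *Slc39a14* was at −1.62 in monocyte/macrophage-like and −1.15 in dendritic cell-like cells and at 2.43 in neutrophil-like cells.

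The cells over the mitochondrial limit entered no comparison. Of the 10 members, 9 were above the limit that a count of 0 allows in the 277 such cells of day 1 and 10 in the 1804 of day 3, with *Hmox1* at 279 and 343 CPM.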

How the results depend on the processing

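No paired analysis was possible because each day had 1 library and its mice were pooled. Over 13 settings, 449 of 476 log2 ratios of members kept their sign, and 237 of 274 past 2-fold stayed past it. The settings with no minimum and with 500 UMIs per gene change only which genes are counted, not the ratios. Their 44 values each, 26 of them past 2-fold, are in these totals and could not change. The cause of the changes below was not tested. Of the 27 values that changed sign, 6 were of ratios past 2-fold. These were *Hmox1* in neutrophil-like (−0.038) and endothelial-like cells (0.70) and *Ftl1* in endothelial-like cells (0.29) with each cell named by its marker score. The others were *Cd163* in dendritic cell-like cells with cells over 10% of the 99th percentile of UMIs (3.77) or 20 PCs (2.42), and *Cd163* in FAP-like cells thinned to 1000 UMIs (1.23). Among ratios within 2-fold, *Hmox1* in dendritic cell-like cells went from −0.97 to 0.67 with 20 PCs. Counts of members: in monocyte/macrophage-like cells, higher 0 with mean cell CPM or median-of-ratios scaling and 1 with thinning or a minimum of 500 UMIs. In neutrophil-like cells, higher 0 (median-of-ratios) and 1 (500 UMIs), lower 2 (thinned). In dendritic cell-like cells, lower 1 (percentile of UMIs, 20 PCs) and 2 (500 UMIs). In FAP-like cells, higher 2 (thinned, no minimum), lower 1 (Scrublet, 500 UMIs). In endothelial-like cells, higher 1 (no minimum), lower 3 (Scrublet) and 2 (marker score, 500 UMIs). Counts of other iron and heme genes: in monocyte/macrophage-like cells, higher 5 and lower 6 (median-of-ratios). In neutrophil-like cells, higher 3 (15% mitochondrial limit), 2 (median-of-ratios), 24 (no minimum) and 0 (500 UMIs), lower 1 (15% limit, Scrublet, 500 UMIs) and 7 (median-of-ratios). In FAP-like cells, lower 2 (percentile of UMIs, 15% limit, Scrublet, resolution 0.4, marker score, thinned), 6 (median-of-ratios) and 3 (no minimum). Leaving out the clusters led by monocyte markers, chosen after seeing the data, kept the counts in monocyte/macrophage-like cells at 2 and 4 of the members. Some settings left under 50 cells of a type on a day and gave no value there, among them endothelial-like cells with the percentile of UMIs, the 15% limit, resolution 0.4 and 20 PCs, and neutrophil-like cells with the percentile of UMIs. At resolution 0.4 the dendritic cell-like type had 0 cells, and monocyte/macrophage-like cells numbered 3940 and 3318. Ambient RNA was subtracted only in the 3 myeloid types.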
